A study of Mus musculus with 20 samples.

Results

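Toll-like receptors and the co-receptors of lipopolysaccharide (LPS) were followed through 10 mouse blood cell types. The 10 genes, Tlr1, Tlr2, Tlr3, Tlr4, Tlr6, Tlr7, Tlr9, Tlr13, Cd14 and Ly96, were taken by symbol, and all 16 of their probe sets were read, out of 18193 genes with a probe set on the array. Each cell type had been sorted by flow cytometry from female C57Bl/6 mice, given as 12 to 14 weeks old, and was measured on 2 Affymetrix arrays, each made from 4 pooled samples, so that there are 20 arrays in all. Besides monocytes, granulocytes and nucleated erythrocytes there were B cells, natural killer cells (NK cells), T cells in 4 groups and the long-term stem cells of the bone marrow (LT-HSC). The T cell groups were naive or activated, each in a CD4 and a CD8 form, and the activated ones are labelled as treated with LPS, with no dose or time. The labels name no allele and no other treatment.

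Toll-like receptors are sensors of microbial molecules that stand on the cell surface or in endosomes and signal through the adaptors Myd88 and Trif. Tlr4 forms the LPS receptor with Ly96 (also called MD-2), to which Cd14 passes LPS, while Tlr2 pairs with Tlr1 or Tlr6 to bind bacterial lipopeptides. Tlr3, Tlr7, Tlr9 and Tlr13 lie in endosomes and bind double-stranded RNA, single-stranded RNA, unmethylated CpG DNA and bacterial ribosomal RNA. Phagocytes are the textbook site of LPS sensing, B cells also carry several of these receptors, and T cells are usually activated through their antigen receptor.

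Values are log2 expression values, and a level above 5 is treated as above background. Background readings differ between probe sets, so levels are compared between cell types for 1 probe set and not between genes. Fitted differences are given with their standard error after the ± sign, every cell type has n = 2 arrays, and nothing states that the 2 pools came from separate experiments, so p-values measure the spread between pools. Comparisons are 2-sided limma tests with Benjamini-Hochberg adjustment over the 9810 genes with a value above 5 on at least 2 arrays. A gene was called where the adjusted p was under 0.05 and the log2 difference at least 1 in size. Of the 10 genes 9 were tested and Tlr9 was not. In sorted bulk RNA, fewer cells of a type and less RNA per cell cannot be told apart.

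Some arrays went against their labels or carried RNA typical of other types. Y-linked transcripts were present on all 4 activated T cell arrays and on the naive CD4 and CD8 arrays numbered 1, although the mice are labelled female. These arrays were not alike in the X-linked transcript Xist. It read 4.28 on the naive CD4 and 9.88 on the naive CD8 array, 3.93 and 8.14 in activated CD4 and 2.23 and 8.99 in activated CD8 T cells. The defining markers of each lineage were above 5 where they belong in T cells (6 of 6), NK cells (5 of 5), B cells (4 of 5, Pax5 being under 5), erythrocytes (4 of 4) and stem cells (4 of 4). Monocytes showed 3 of 5 monocyte genes above 5, and Fcgr1 (3.08 on both arrays) and F13a1 (3.24 and 4.70) were not. Of the 3, Csf1r read 13.95 and 13.71, but Ccr2 (5.11 and 6.07) and Cx3cr1 (5.15 and 5.57) lay near 5. Neither Ccr2 nor Cx3cr1 was called between phagocytes and lymphocytes or between monocytes and granulocytes. The same list averaged 6.11 and 6.63 in monocytes and 6.94 and 6.54 in granulocytes. Granulocyte genes were above 5 in 8 and 7 of 8 on the monocyte arrays (mean level 11.75 and 11.74), 8 of 8 on the granulocyte arrays (14.09 and 14.29) and 7 of 8 on both erythrocyte arrays (10.59 and 11.85). Erythroid genes were above 5 in 3 and 2 of 4 on the granulocyte arrays (mean level 8.48 and 6.69) and in none on the monocyte arrays (2.50 and 2.37). Naive CD4 array 2 read 10.75 for S100a8, a neutrophil and monocyte gene, against 3.45 on array 1. The monocyte arrays were the least alike pair of replicates (r = 0.945 across the genes tested, genes not being independent).

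The promoters of 3 of the genes are shown because they share a sequence element but not an expression pattern: Tlr13 was read in phagocytes alone, Tlr1 was highest in B and naive T cells, and Tlr9 showed no signal. RefSeq promoters (GRCm38.p6) were read for 6 of the 10 genes, in 8 windows of the 250 bases before an annotated start. The counts of matches cover those 6 genes alone, and no window of Tlr4, Tlr7, Cd14 or Ly96 was among the 8. Capitals mark GAGGAA, the core of the box bound by the myeloid and B-cell factor PU.1, searched on both strands.
Tlr13, chrX:106143025-106143274, plus strand: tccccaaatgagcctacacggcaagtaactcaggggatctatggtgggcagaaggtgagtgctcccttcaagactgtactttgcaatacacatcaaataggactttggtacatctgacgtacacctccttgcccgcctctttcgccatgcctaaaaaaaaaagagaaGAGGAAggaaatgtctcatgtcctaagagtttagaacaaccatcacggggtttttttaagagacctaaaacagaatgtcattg
Tlr1, chr5:64933559-64933808, minus strand: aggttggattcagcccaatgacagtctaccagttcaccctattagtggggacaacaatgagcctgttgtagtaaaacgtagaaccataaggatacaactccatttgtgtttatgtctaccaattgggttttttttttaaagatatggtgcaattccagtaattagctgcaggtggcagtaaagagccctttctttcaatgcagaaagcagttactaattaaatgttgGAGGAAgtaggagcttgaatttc
Tlr9, chr9:106222348-106222597, plus strand: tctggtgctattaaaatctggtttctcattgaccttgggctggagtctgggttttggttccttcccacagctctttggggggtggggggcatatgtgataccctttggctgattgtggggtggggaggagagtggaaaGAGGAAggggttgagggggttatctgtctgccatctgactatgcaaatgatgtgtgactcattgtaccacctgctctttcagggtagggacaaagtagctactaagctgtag
The element was in 3 of the 8 windows, against 23.3% of all 32851 windows of that length. Tlr1 had another window, chr5:64932700-64932949, without it. On both strands, the AP-1 letters TGANTCA were in 1 of the 8 windows (6.75% of all) and TTGCNNAA, a C/EBP site, in 2 (9.56%). These matches are descriptions and not binding sites.

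The LPS receptor came first. Tlr4 read 9.92 and 11.11 in monocytes, 11.00 and 10.85 in granulocytes, 8.40 and 8.70 in B cells and 8.25 and 7.71 in NK cells. It read 6.79 and 4.25 in LT-HSC, 4.33 and 4.72 in erythrocytes and 2.87 to 3.41 on all 8 T cell arrays. Monocytes and granulocytes overlapped, the steps down to B cells, NK cells and LT-HSC did not overlap, and LT-HSC overlapped with erythrocytes. Ly96 had a like order, with 8.82 and 9.21 in monocytes, 8.62 and 8.78 in granulocytes, 6.29 and 7.27 in B cells and 5.17 and 5.21 in NK cells. The naive T cell arrays read between 3.69 and 5.35 and the activated ones between 3.18 and 3.66. LT-HSC (3.63 and 3.87) and erythrocytes (3.16 and 3.45) were as low. Across the 10 cell type means the correlation of Ly96 with Tlr4 was 0.90, a description only, since both genes were read on the same arrays. It was not particular to this pair, as Ly96 had like values with Tlr6 (0.90), Tlr13 (0.86) and Tlr2 (0.85).

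Cd14 was above 5 on 3 of the 20 arrays. It read 10.24 and 9.22 in monocytes and 2.12 and 1.82 in granulocytes, while 15 of the other 16 arrays lay between 1.62 and 1.77. The exception was LT-HSC array 1 at 6.73, against 1.77 on LT-HSC array 2, and Tlr4 was also higher on that array. On it 1 of 5 monocyte genes was above 5 (mean level 4.26) against 2 of 5 on array 2 (4.87). Csf1r, the receptor of a monocyte growth factor, read 6.70 on array 1 and 8.71 on array 2. The part of monocyte RNA in the Cd14 value of LT-HSC array 1 was not tested. Cd14 was the 1 gene of the 9 called above each of the other 9 types. Of the genes tested, 1.37% had such a call in monocytes and 17.1% in any type. For Cd14, monocytes exceeded the next type, LT-HSC, by 5.48 ± 1.01 (adjusted p = 0.00664, limma). The call was lost without monocyte array 1 and with array weights, and Tlr6 joined it in monocytes without either activated CD4 or either erythrocyte array.

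The lipopeptide receptors divided between lineages. Tlr2, the common partner, read 13.69 and 12.15 in monocytes and 12.70 and 12.28 in granulocytes, which overlapped. LT-HSC came next at 7.76 and 8.13, above naive CD8 T cells (6.89 and 7.22) and B cells (7.16 and 6.52), and no other array exceeded 6.09. Tlr6 was highest in monocytes at 12.63 and 12.20, followed by granulocytes at 9.98 and 10.21. It read 7.55 and 6.64 in B cells and 6.16 to 6.74 on the 4 naive T cell arrays, which overlapped with B cells. Activated CD4 (6.03 and 4.22) and CD8 T cells (5.26 and 4.26) overlapped with each other, and NK cells (4.39 and 4.31) and LT-HSC (3.58 and 3.79) were under 5.

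Tlr1, which lies next to Tlr6 in the genome, had another order. It was highest in B cells at 13.81 and 13.69, then in naive CD8 (12.17 and 12.71) and naive CD4 T cells (12.16 and 12.11), and lower in monocytes (9.33 and 10.88). Activated CD4 T cells read 7.96 and 8.42, activated CD8 T cells 8.79 and 7.48 and granulocytes 6.08 and 6.56. The erythrocyte arrays differed widely at 3.38 and 6.72, as they did for Tlr6 (4.23 and 6.19), and NK cells (5.12 and 2.72) and LT-HSC (3.42 and 2.74) were lowest. Arrays of neighbouring types in this order overlapped only between the activated groups and among granulocytes, erythrocytes, NK cells and LT-HSC.

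Among the receptors of nucleic acids, Tlr13 was a phagocyte gene, with 12.41 and 12.65 in monocytes and 11.62 and 11.55 in granulocytes. The other 16 arrays read 4.12 or less, among them the erythrocyte arrays (3.41 and 3.91), which carried granulocyte genes such as S100a8 at 14.19 and 15.26. Tlr3 was above 5 on both arrays of 2 types alone, naive CD8 T cells (8.70 and 8.54) and B cells (7.68 and 7.89). It read 5.40 and 4.44 in LT-HSC, 4.71 and 4.63 in NK cells and 3.57 or less elsewhere, naive CD4 T cells (3.57 and 3.52) included. Tlr9 lay between 2.19 and 2.37 on all 20 arrays, at 2.23 on both B cell arrays, so its single probe set did not rise above background in any type and gives no order.

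Tlr7 read 10.26 and 9.32 in monocytes, 8.52 and 9.02 in B cells and 8.14 and 7.18 in granulocytes. Naive CD4 (7.10 and 7.17) and naive CD8 T cells (6.68 and 7.50) overlapped, and activated CD8 (6.76 and 5.35) and activated CD4 T cells (5.24 and 5.12) followed, the activated CD8 arrays overlapping with naive CD8. NK cells, LT-HSC and erythrocytes were under 5 on all 6 arrays (4.07 to 4.31). Both naive arrays with Y-linked signal and both without it had X-linked Tlr7 above 6.

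**Figure D1:**
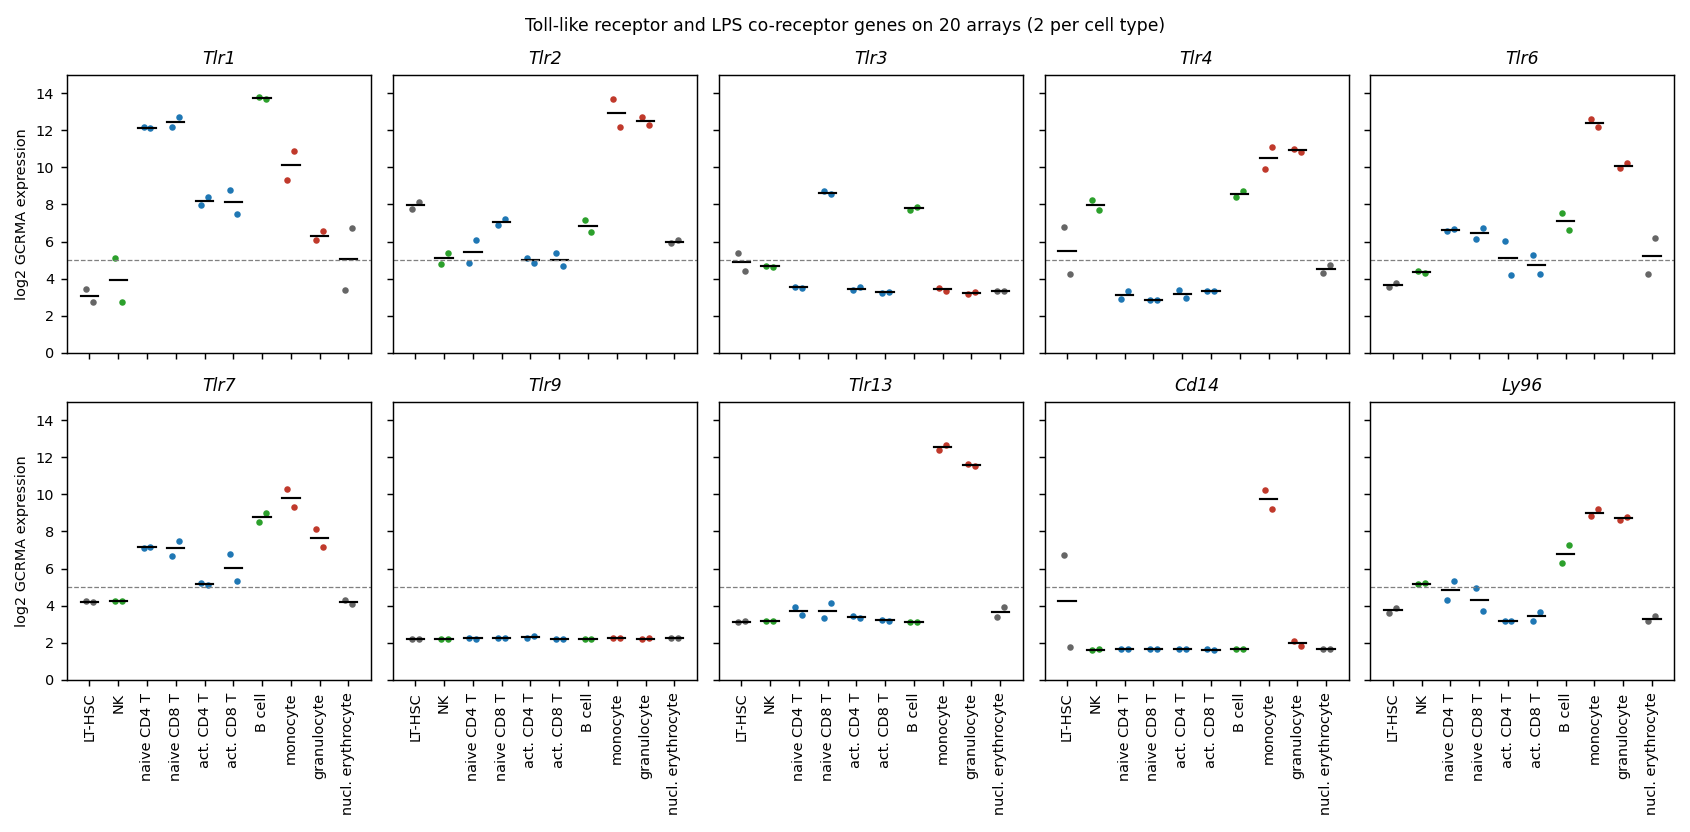
Log2 expression (vertical axis) of the 10 genes in 10 cell types (horizontal axis). Points are the 2 arrays of a type, black bars their mean, and the dashed line marks 5. Tlr13 stands above the line in monocytes and granulocytes alone, Cd14 on both monocyte arrays and on LT-HSC array 1 (6.73), and Tlr9 nowhere.

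Probe sets of a gene did not always agree. The best Tlr4 probe set gave the B and NK cell signal, whereas a second one was above 5 on 3 arrays (monocyte array 2 at 6.83 and both granulocyte arrays at 6.37 and 5.65) and read 2.89 and 3.54 in B cells and 2.80 and 2.91 in NK cells. The other 2 Tlr4 probe sets stayed at 3.27 or less on every array. Expression of Tlr4 in B and NK cells therefore rests on 1 of 4 probe sets. The third probe set of Tlr7 was above 5 in B cells (6.67 and 7.48), granulocytes (5.79 and 5.20) and monocyte array 2 (8.11) and read 2.50 to 2.85 on the 8 T cell arrays, where the first read 5.12 to 7.50 and the second 4.63 to 7.34. The annotation gives the first and second the same source transcript. When the probe sets of Tlr3 were averaged, its differences of B cells (0.98) and NK cells (-0.88) from naive T cells and of LT-HSC from phagocytes (0.77) were under 1 in size. The second probe set of Tlr3 stayed under 5 on all arrays, with its highest values in B cell array 2 (4.83) and naive CD8 array 2 (4.54).

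**Figure D2:**
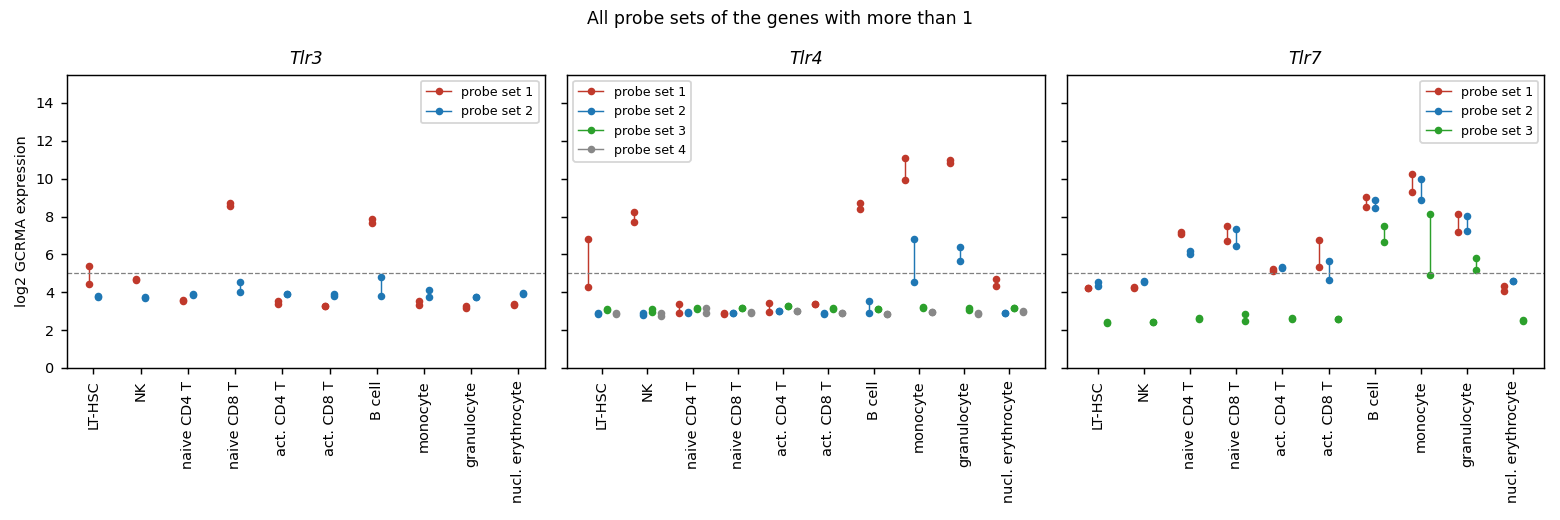
Log2 expression (vertical axis) by cell type (horizontal axis) for every probe set of Tlr3, Tlr4 and Tlr7, numbered from the highest mean down. Points are the 2 arrays of a type, joined by a line, and the dashed line marks 5. Probe set 3 of Tlr7 is at 2.85 or less in all T cell groups, and probe set 1 of Tlr4 alone is above 5 in B and NK cells.

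Phagocytes were set against resting lymphocytes (NK, B and both naive T cell types). Of the 9 genes 7 were higher and 2 lower in the mean of monocytes and granulocytes, where 18.0% of all genes tested were called higher and 34.3% lower. The median difference was 4.20 over the 9 genes and -0.35 over all genes tested. Of the LPS receptor, Tlr4 was higher by 5.08 ± 0.37 and Ly96 by 3.58 ± 0.26. Cd14 differed by 4.20 ± 0.62, from monocytes alone, since granulocytes were under 5 as lymphocytes were. Tlr2 (6.59 ± 0.30), Tlr6 (5.12 ± 0.38), Tlr13 (8.62 ± 0.16, adjusted p = 6.91e-14) and Tlr7 (1.91 ± 0.28) were the others, and the lymphocyte mean of Tlr13, 3.43, was under 5. The arrays of both sides did not overlap for 6 of these, Tlr7 being the exception, where 35.5% of all genes tested did not overlap. For Cd14 that separation of granulocytes from lymphocytes lies within background. Tlr1 (-2.35 ± 0.57) and Tlr3 (-2.83 ± 0.16) were lower, with overlapping arrays. Of 31 tested genes of the wider pathway 10 were higher and 3 lower. The adaptors Tirap (4.84 ± 0.28) and Myd88 (2.83 ± 0.15) and the inhibitor of their kinase complex Irak3 (5.85 ± 0.29) were among the higher. The LPS-binding protein gene Lbp (4.94 ± 0.40) was too, with a mean of 11.12 in granulocytes and of 3.67, under 5, in monocytes. The kinase gene Ikbke (-4.18 ± 0.18) and the inhibitory receptor gene Sigirr (-2.57 ± 0.24) were lower.

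Between the 2 phagocytes, 4 of the 9 genes were higher in monocytes and none was lower, where 6.98% of genes tested were called higher and 17.3% lower. They were Cd14 (7.76 ± 1.01, adjusted p = 9.18e-05), Tlr1 (3.78 ± 0.94, adjusted p = 0.00876), Tlr6 (2.32 ± 0.63, adjusted p = 0.0144) and Tlr7 (2.13 ± 0.46, adjusted p = 0.00371). Tlr13 was 0.95 ± 0.27 above granulocytes (adjusted p = 0.0181), short of the difference of 1. Tlr2 (0.43 ± 0.49), Tlr4 (-0.41 ± 0.60) and Ly96 (0.31 ± 0.43) were not called. Only 2 of the 4 genes were called without granulocyte array 1, with array weights or in a fit of these 2 types alone, Cd14 being called in each, and Tlr1 was also lost without monocyte array 2 and Tlr6 without monocyte array 1. Of the 31 pathway genes 5 were higher in monocytes, among them the endosomal transporter gene Slc15a4 (1.77 ± 0.33) and the scavenger receptor gene Cd36 (3.91 ± 0.94), and 4 were lower, Lbp (-7.45 ± 0.65) among them. The erythroid genes Alas2 (-9.18 ± 0.35) and Slc4a1 (-8.24 ± 0.52) were also lower in monocytes. The part in these differences of the erythroid genes on the granulocyte arrays and of the granulocyte genes on the monocyte arrays was not tested.

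B cells were compared with naive T cells and with monocytes. Against the mean of both naive T cell types 4 of 9 genes were higher and none lower, where 8.27% of genes tested were called higher and 7.77% lower. These were Tlr4 (5.54 ± 0.52, adjusted p = 3.26e-06), Ly96 (2.21 ± 0.37), Tlr3 (1.70 ± 0.23) and Tlr7 (1.66 ± 0.40), and Tlr3 overlapped, naive CD8 T cells reading above B cells. Naive T cells were at background for Tlr4, and by its second probe set its difference was 0.31 ± 0.45. The difference of Tlr7 was 1.66, 2.17 and 4.43 by its 3 probe sets. By the first, the call was lost without B cell array 2 (1.41 with adjusted p = 0.125) or without the naive arrays numbered 1 (1.43 with adjusted p = 0.0652). Tlr1 was not called (1.46 ± 0.81, adjusted p = 0.271). When B and naive T cells alone were fitted, Tlr1 was called (adjusted p = 0.0105) and Ly96 was not (adjusted p = 0.0615). The B-cell genes Ms4a1, Cd79b, Blk and Cd79a differed between the same arrays by 7.19, 7.35, 7.50 and 4.21. Their mean levels in naive T cells were 8.03, 7.10, 6.28 and 2.54. Of 31 pathway genes 10 were higher in B cells and 1 lower. The higher ones included Irak3 (5.38 ± 0.41), the adaptor Pik3ap1 (4.55 ± 0.42), Ly86, the partner of the LPS-related receptor Cd180 (4.36 ± 0.89), and Unc93b1, which carries endosomal receptors to their compartment (3.56 ± 0.55).

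Against monocytes 2 of 9 genes were higher and 6 lower in B cells, where 35.5% and 15.9% of genes tested were called. Tlr1 (3.64 ± 0.94, adjusted p = 0.00449) and Tlr6 (-5.32 ± 0.63, adjusted p = 8.46e-06), the alternative partners of Tlr2, differed in opposite directions. Tlr3 was higher (4.36 ± 0.26), and Tlr13 (-9.40 ± 0.27), Cd14 (-8.09 ± 1.01), Tlr2 (-6.08 ± 0.49), Ly96 (-2.23 ± 0.43) and Tlr4 (-1.96 ± 0.60) were lower. Tlr7 was not called (-1.02 ± 0.46, adjusted p = 0.0747), and with quantile normalization it was (-1.37, adjusted p = 0.0168). The call of Tlr1 was lost without monocyte array 1 (2.87, adjusted p = 0.0502), and that of Tlr4 without B cell array 1 or monocyte array 2 and in a fit of these types alone. Of the 31 pathway genes 5 were higher and 5 lower in B cells, Myd88 (-4.00 ± 0.24) and Tirap (-3.02 ± 0.46) among the lower.

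NK cells were compared with naive T cells, and 1 of 9 genes was higher and 4 were lower, where 8.35% and 8.95% of genes tested were called. Tlr4 was higher (4.97 ± 0.52, adjusted p = 1.10e-05), but not by its second probe set (-0.05 ± 0.45), where 17.7% of probe sets were called. Tlr1 (-8.37 ± 0.81), Tlr7 (-2.86 ± 0.40), Tlr6 (-2.19 ± 0.54) and Tlr3 (-1.41 ± 0.23) were lower. For Tlr3 the sides overlapped, as naive CD4 T cells read below NK cells. Tlr2 missed the threshold (-1.17 ± 0.43, adjusted p = 0.072) and was called under 5 other settings. These included leaving out either monocyte array, which is outside the comparison and left the difference at -1.17. The call of Tlr6 was lost without either NK array. Monocyte genes were above 5 in 2 and 3 of 5 on the NK arrays (mean level 6.35 and 5.46), and granulocyte genes in 1 of 8 (3.14 and 3.08). Of the monocyte genes, Csf1r read 11.42 and 7.30 and Cx3cr1 4.93 and 5.10 in NK cells. Ccr2 read 9.37 and 9.63 there, above its 5.11 and 6.07 in monocytes. Tlr13 and Cd14, both high in monocytes, read 3.19 and 3.17, and 1.62 and 1.65, on the NK arrays. Neither was called against naive T cells. Macrophage genes were above 5 in 2 and 1 of 4 on the NK arrays (mean level 5.66 and 4.23). Among them C1qb read 10.21 and 7.44 and Adgre1 7.93 and 4.94. The part of monocyte or macrophage RNA in the NK cell values was not tested. Of the 31 pathway genes Tirap (3.72 ± 0.40) and Pik3ap1 (4.03 ± 0.42) were higher in NK cells and Ly86 and Ikbke lower.

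Stem cells were compared with their phagocyte progeny. In LT-HSC 7 of the 9 genes were lower than in the mean of monocytes and granulocytes and 1 was higher, where 23.4% and 30.8% of genes tested were called. Tlr13 (-8.92 ± 0.23) and Tlr6 (-7.57 ± 0.54) were under 5 in LT-HSC, and Tlr2 (-4.76 ± 0.43), though higher in LT-HSC than in any lymphocyte, was lower too. Tlr3 was the higher one (1.60 ± 0.23), from a mean of 4.92 that lies under 5. Cd14 was not called (-1.60 ± 0.87, adjusted p = 0.128), and without LT-HSC array 1 it was (-4.08, adjusted p = 5.78e-07). Of the 31 pathway genes 13 were lower and 1, Ikbke (2.05 ± 0.25), was higher, with Ly86 (-6.56 ± 0.89), Myd88 (-3.16 ± 0.21) and Irf7, a factor of interferon induction (-4.45 ± 0.34), among the lower.

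The last comparison set T cells labelled as LPS-activated against naive ones. On the 4 activated arrays no gene of the LPS receptor was above 5: Tlr4 read 3.41 and 2.98 in CD4 and 3.36 and 3.36 in CD8 T cells, Cd14 1.63 to 1.68 and Ly96 3.18 to 3.66. All 4 probe sets of Tlr4 were under 5 there. None of the 9 genes was higher after activation in either lineage. In CD4 T cells 3 of 9 were lower and in CD8 T cells 3 of 9, where 18.2% and 15.7% of genes tested were called lower and 14.9% and 14.4% higher. The median difference over the 9 genes was -0.45 in CD4 and -1.03 in CD8 T cells, against 0.02 and -0.02 over all genes tested.

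Tlr1 fell in both lineages, by 3.95 ± 0.94 in CD4 (adjusted p = 0.00482) and by 4.31 ± 0.94 in CD8 T cells (adjusted p = 0.00322), and the naive and activated arrays did not overlap. Arrays did not overlap for 6 of the 9 genes in CD4 and 8 in CD8 T cells, where 74.4% and 71.1% of genes tested did not, but 2 of the 6 (Tlr13 and Cd14) and 4 of the 8 (these, Tlr4 and Ly96) were under 5 on all arrays of that lineage. Tlr1 stayed above 7 on all 4 activated arrays. Tlr3 fell by 5.35 ± 0.26 in CD8 T cells (adjusted p = 2.01e-08), from 8.70 and 8.54 to 3.25 and 3.28. In CD4 T cells it was under 5 before and after (-0.07 ± 0.26), so that no fall could be read there. The difference of these changes, 5.28 ± 0.37 (adjusted p = 7.39e-06), thus restates the gap between the naive types. Of genes tested 0.663% had such a call, and no other of the 9 genes was called. A comparison of the naive types, added after these values were seen, called Tlr3 alone of the 9 genes (5.07 ± 0.26 higher in CD8, adjusted p = 9.52e-08), where 2.33% of genes tested were called. In a fit of the 4 naive arrays alone Tlr3 was not called (adjusted p = 0.0710), and Tlr2 was called without naive CD4 array 2 (2.21, adjusted p = 0.0446).

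Tlr2 fell in CD8 T cells by 2.02 ± 0.49 (adjusted p = 0.00641) and was not called in CD4 T cells (-0.45 ± 0.49), and the difference of the changes was not called (1.57 ± 0.70, adjusted p = 0.754). The CD8 call was lost without activated CD8 array 2 (-1.68, adjusted p = 0.0651). Tlr6 missed the threshold in CD4 (-1.50 ± 0.63, adjusted p = 0.0776) and CD8 T cells (-1.69 ± 0.63, adjusted p = 0.0535). It was called under 3 other settings in CD4 and 5 in CD8 T cells. These included leaving out either erythrocyte array and, for CD8, either activated CD4 array. Such arrays are outside the comparison, and the differences stayed at -1.50 and -1.69. Ly96 fell in CD4 T cells by 1.63 ± 0.43 (adjusted p = 0.00942), from 4.29 and 5.35 on the naive arrays, whose mean of 4.82 lies under 5. The call was lost without naive CD4 array 2 or activated CD4 array 1 and in a fit of these groups alone. Tlr7 was lower by its first probe set in CD4 T cells (-1.95 ± 0.46, adjusted p = 0.00447) and not in CD8 (-1.03 ± 0.46), by its second in CD8 (-1.75 ± 0.43) and not in CD4 (-0.80 ± 0.43), and by the remaining one in neither, so its probe sets gave no common answer. Of all probe sets 30.1% were called in CD4 and 28.4% in CD8 T cells. The mean of its probe sets changed by -0.92 in CD4 T cells, under the size of a call, and its first was called in CD8 T cells without activated CD8 array 1 (-1.74, adjusted p = 0.0159).

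Some markers of other cells moved in the same arrays. Csf1r fell from a mean of 9.82 in naive to 2.46 in activated CD4 T cells and from 8.28 to 3.72 in CD8 T cells. The mean level of the 5 measured monocyte genes was 4.77 to 5.53 on the naive and 3.75 to 4.09 on the activated arrays, that of the 5 B-cell genes 4.50 to 5.53 and 3.46 to 4.64, and that of the 8 granulocyte genes 3.11 to 5.57 and 3.12 to 3.21. Of the B-cell genes, Cd79b fell in both lineages (-2.50 ± 0.88, adjusted p = 0.0384 in CD4, and -3.39 ± 0.88, adjusted p = 0.00906 in CD8 T cells). Ms4a1 (-1.41 ± 1.02 and -2.78 ± 1.02) and Blk (-0.66 ± 0.41 and -1.03 ± 0.41) were not called, and Cd79a, at 6.85 and 6.64 in B cells, stayed at 2.68 or less on all 8 T cell arrays. The 4 plasmacytoid dendritic cell genes averaged 5.75 to 6.71 on the naive and 5.09 to 6.15 on the activated arrays. Among them Pacsin1 fell (-3.61 ± 0.62 and -2.36 ± 0.62), Klk1 rose (3.54 ± 0.39 and 2.80 ± 0.39), and Siglech, not tested, read 4.89 and 6.94 in naive and 2.44 and 2.45 in activated CD4 T cells. The 4 macrophage genes averaged 4.21 to 5.37 on the naive and 3.92 to 4.30 on the activated arrays. For the 4 measured conventional dendritic cell genes these means were 3.34 to 3.72 and 3.02 to 3.21. The part of all these markers in the falls of Tlr1, Tlr2, Tlr3, Tlr7 and Ly96 was not tested. The naive arrays numbered 1 share the Y-linked signal with the activated arrays. With these naive arrays alone, Tlr1 was called in both lineages and Tlr2 and Tlr3 in CD8 T cells. Ly96 differed by -1.52 in CD8 and by -1.10 in CD4 T cells, between arrays that were all under 5. It read 4.94 on the naive CD8 and 4.29 on the naive CD4 array, and 3.18 to 3.66 on the activated ones.

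**Figure D3:**
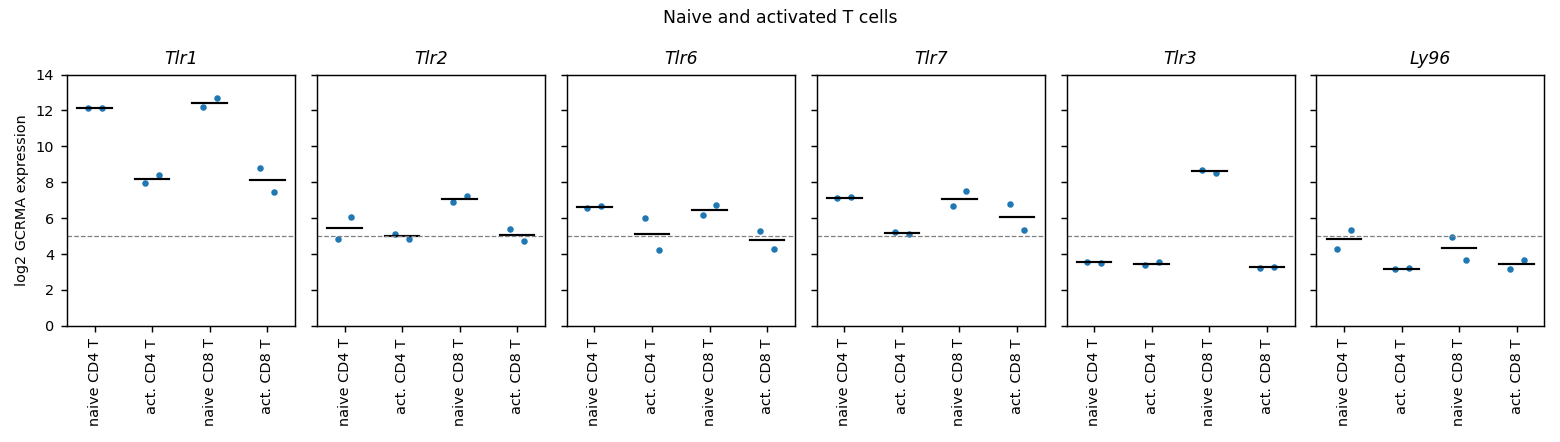
Log2 expression (vertical axis) of 6 genes in naive and activated (act.) CD4 and CD8 T cells (horizontal axis). Points are the 2 arrays of a group, bars their mean, and the dashed line marks 5. Tlr1 drops in both lineages to between 7.48 and 8.79, and Tlr3 drops from 8.70 and 8.54 in CD8 T cells and is under 5 in both CD4 groups.

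In the wider pathway no gene of 31 was higher after activation, and 9 were lower in CD4 and 6 in CD8 T cells, against 18.2% and 15.7% of all genes tested called lower and 14.9% and 14.4% higher. Ly86 (-6.21 ± 1.03 and -3.99 ± 1.03), Ikbke (-2.28 ± 0.29 and -2.59 ± 0.29), the kinase gene Ikbkb (-1.81 ± 0.22 and -1.39 ± 0.22), the ubiquitin ligase gene Peli1 (-1.85 ± 0.47 and -2.57 ± 0.47) and Irf7 (-2.38 ± 0.39 and -2.74 ± 0.39) were lower in both. Pik3ap1 fell in CD4 T cells (-3.66 ± 0.48), and its change differed between the lineages (-3.84 ± 0.68, adjusted p = 0.0169).

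**Figure D4:**
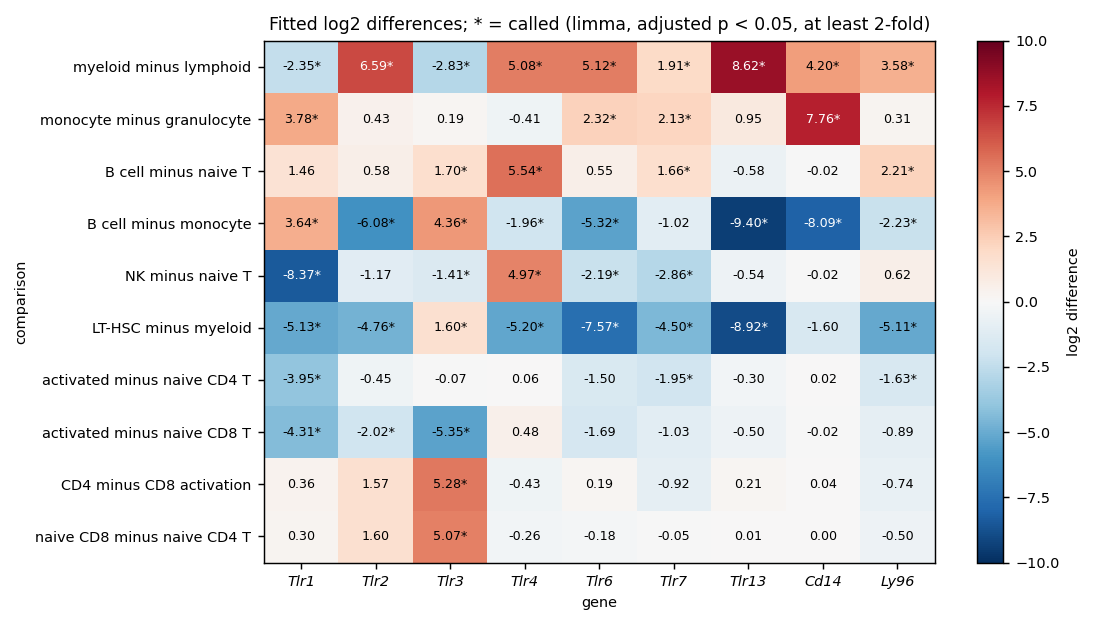
Fitted log2 differences (colour and number) of the 9 tested genes (horizontal axis) in 10 comparisons (vertical axis), red where the first-named group is higher. A star marks a call at an adjusted p under 0.05 and a difference of at least 1. Tlr13 reaches 8.62 in phagocytes against lymphocytes, and the row of the activation difference holds a single star, that of Tlr3.

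Genes with the most similar pattern were read over the 10 cell type means, by Pearson correlation among the genes tested, as a description. Closest to Tlr2 were Spi1, which encodes PU.1 (r = 0.982), and Csf2ra, a receptor chain for a myeloid growth factor (r = 0.981), and closest to Tlr13 were Stfa2l1, Arg2 and Lhx1 (r = 0.999 each). Tlr4 was followed by Unc119 (r = 0.954) and by Tirap, its own adaptor (r = 0.943), and Cd14 by Lrp1 (r = 0.998) and Ptgs2 (r = 0.985), whose means were next highest in LT-HSC (4.86 and 5.40). Tlr1 was closest to St6gal1 (r = 0.910) and the inhibitory receptor gene Btla (r = 0.904), and Tlr3 to the antigen-presentation gene H2-DMa (r = 0.892). Ly96 was closest to Arap1 (r = 0.975), Tlr6 to B4galt3 (r = 0.964) and Tlr7 to Tbc1d14 (r = 0.934).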

How the data were processed

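The authors deposited a log2 value for 45101 probe sets on every array. The submitters' processing notes name GCRMA, whose version is not given in the sources used here. Per the labels, RNA of 25000 to 50000 sorted cells was amplified by in vitro transcription. Groups came from sample titles, and for 1 array, titled CD48+, from its source name, CD8+. Names of probe sets come from the platform annotation, updated by Entrez identifier. Of the probe sets 34945 had 1 gene symbol, 932 had several, 9160 had none here and 64 were controls. A gene was read from its probe set with the highest mean. With limma 3.58.1 in R 4.3.3, all 20 arrays entered 1 linear model with a mean for each type (10 residual degrees of freedom), which was tested on simulated data. Every probe set was also fitted on its own (18726 passed the filter). The genes, the pathway lists (45 genes, 31 tested) and the marker lists were chosen with earlier results of these data known. Genes named are the 10 receptors, the 3 of nearest pattern for each and up to 4 called genes per pathway list and comparison. Other settings changed the probe set choice, filter, normalization, weights, prior, arrays and replicate block. The number of arrays limits the precision.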

Additional observations from a re-analysis of the deposited data

Results flagged for a closer look

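The change of Tlr3 with activation was singled out by the test of a difference between the T cell lineages: the change in CD4 minus that in CD8 T cells was 5.28 on the log2 scale (limma, adjusted p = 7.39e-06). In CD4 T cells Tlr3 was at background before (3.57 and 3.52) and after activation (under 5 on both arrays) and could not fall, so the value restates its higher level in naive CD8 T cells (5.07 above naive CD4) and does not show a difference in response. In CD8 T cells both naive arrays were above both activated ones. The difference was called under every setting tried. No other of the 9 genes tested was called.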

How the results depend on the processing

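No difference called in the main fit or under another setting reversed its direction. Changes of sign among differences called in neither were not counted. Over single genes, 2755 of 2808 repeats kept the call or its absence, 28 lost a call and 25 gained one. Genes called between monocytes and granulocytes numbered 4, and 2 with array weights or with only the groups compared. Genes called above every other type numbered 1, and 2 with quantile normalization (Tlr13 joined) and 0 with array weights. The added comparison of naive types had 1 called gene and 0 when only those groups were fitted. Leaving out 1 array gave 2 to 4 called genes between monocytes and granulocytes, 0 to 2 above every other type and 1 to 2 between the naive types. With the replicate block every count of the receptors was the same, 3 in each activation comparison for example. Deviations of same-numbered arrays correlated above 0.1 in 9 of 45 pairs of types (range -0.26 to 0.21), so the numbers were not taken to pair the arrays, although both naive T cell arrays numbered 1 carry Y-linked signal. In the 8 comparisons of groups of the design, 1573 to 5314 of 9810 genes were called, and 3154 to 9587 of 18726 probe sets, counts over different totals. Calls between monocytes and granulocytes fell from 2387 genes to 1496 with array weights, 411 with only the groups compared and 1580 without granulocyte array 1. Calls fell for NK against naive T cells from 1697 to 1027 without NK array 1, and for the lineage difference of activation from 65 to 22 with only the groups compared and 43 without the naive arrays numbered 1. Between the naive types they went from 229 to 1 with only the groups compared, and to between 116 and 363 with 1 array left out.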
